A study of Homo sapiens with 12 samples.

Results

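The collagen and laminin genes are described here in HK-2 cells exposed to a compound that the labels call Aa. HK-2 is an immortalised epithelial line from the human renal proximal tubule. Members were the genes whose symbol reads COL, digits, A and digits (such as COL4A1) or LAMA, LAMB or LAMC and a digit, counted only where an array probe set is annotated to that gene alone. The rule found 53 genes (43 collagens and 10 laminins) of 19775 genes on the array. Where a gene had several probe sets, the one with the highest mean level stood for it. A total of 27 members (19 collagens and 8 laminins) were over log2 4, a level a little above background, on at least 3 of the 12 arrays and were tested among the 11184 genes that passed this filter. COL17A1 and LAMA3 were not analysed here.

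Exposure was to a high dose of Aa or to vehicle alone, for 24 h or 48 h, and each of the 4 groups held 3 arrays that the labels call biological replicates. All groups shared 1 medium with epidermal growth factor, hydrocortisone, insulin and transferrin, and treatment began when the wells were close to confluent. The experiment belongs to a larger search for expression signatures of toxicity. What Aa is and its dose in numbers are not stated in the labels, and all cells came from 1 line. Nothing in the labels says whether the replicates were separate cultures, so p-values measure the spread between these samples.

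Values are log2 expression levels and each difference is Aa minus control. Correlations between arrays of 1 group were 0.994 to 0.997. The mean difference between the 3' and 5' control probe sets of ACTB and GAPDH, a sign of RNA quality, was 0.306 and 0.319 on control arrays at 24 h and 48 h and 0.394 and 0.542 on Aa arrays; its part in the results below was not tested. All 7 epithelial markers were over the filter in these cells, and 3 of them fell at 24 h, while 2 rose and 4 fell at 48 h. CDH1 had changes of -1.68 at 24 h and -1.27 at 48 h (limma adjusted p = 0.0045 and 0.0154), and KRT7 of 0.11 and 1.33 (adjusted p = 0.745 and 0.000613). The summed epithelial level, on the linear scale, was 31570 to 35670 in controls and 22870 to 26680 with Aa at 24 h, and 27350 to 33140 and 22430 to 28780 at 48 h. Of 10 proximal tubule markers only SLC3A1 was over the filter, with changes of -1.96 and -3.50 (limma adjusted p = 0.00361 and 4.3e-05). The summed proximal tubule level was 431.4 to 631.4 in controls and 150 to 199.3 with Aa at 24 h, and 584.7 to 1267 and 103.9 to 221.2 at 48 h. Of 4 podocyte markers SYNPO and PLA2R1 were over the filter, and NPHS1 and WT1 were under it. SYNPO rose by 1.02 and 1.52 (adjusted p = 0.000187 and 5.62e-06). PLA2R1 passed at neither time, with means of 4.96 in controls and 4.65 with Aa at 24 h, and 4.72 and 4.68 at 48 h. The summed podocyte level was 126.8 to 149.5 in controls and 189.5 to 260.5 with Aa at 24 h. At 48 h it was 112.9 to 131.6 and 249.8 to 301.1. This sum includes SYNPO and is not separate from its rise. Of 7 fibroblast markers DCN and LUM were over the filter, whereas PDGFRA, PDGFRB, THY1, FAP and POSTN were under it. The summed level of the fibroblast list, on the linear scale, ranged over 4661 to 6632 in controls and 3544 to 5006 with Aa at 24 h, and over 4464 to 5302 and 3933 to 4570 at 48 h. No fibroblast marker passed the limma test at either time: DCN had a change of -0.41 at 24 h (adjusted p = 0.0726) and of -0.21 at 48 h (adjusted p = 0.316), and LUM one of -0.41 (adjusted p = 0.158) and then -0.15 (adjusted p = 0.582). The leukocyte list had 0 of 4 markers over the filter, the endothelial list 1 of 6 (TEK) and the distal nephron list 1 of 5 (SLC12A1). The part of these cell type markers in the results below was not tested. In RNA from whole wells, fewer cells of a type and less RNA per cell cannot be told apart.

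Collagens are trimers of chains wound into a triple helix. Fibrillar collagens form the fibres of connective tissue, type IV chains form the sheet of the basement membrane, and other classes bind fibres, line vessels as short-chain networks or anchor epithelia. Laminins are trimers of an alpha, a beta and a gamma chain that bind cell receptors and assemble first in a basement membrane. A tubular epithelium makes both for the tubular basement membrane. Type IV chains are used in fixed sets, alpha1 with alpha2 in most basement membranes and alpha3 with alpha4 and alpha5 in a smaller number, chiefly the glomerulus and parts of the tubule.

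The 6 type IV genes lie in head-to-head pairs, so that each pair is read outwards from 1 short stretch. The stretches are shown because they place the type IV genes, described first below, beside their partners. Each holds the bases between the 2 starts that the RefSeq promoter windows of both genes (GRCh38.p14, 250 bases before to 50 after a gene's start) have in common, on the + strand, with the GC box GGGCGG and the motif CCAAT in capitals on either strand. On both strands together these motifs can share bases, as in a CCAAT that follows a GC box read backwards.
COL4A1 and COL4A2, chr13:110307158-110307283: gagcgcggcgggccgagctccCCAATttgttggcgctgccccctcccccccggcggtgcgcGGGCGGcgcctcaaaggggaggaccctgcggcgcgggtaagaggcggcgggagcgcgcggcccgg
COL4A4 and COL4A3, chr2:227164374-227164455: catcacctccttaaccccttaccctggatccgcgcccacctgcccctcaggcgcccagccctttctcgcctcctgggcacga
COL4A6 and COL4A5, chrX:108439588-108439708: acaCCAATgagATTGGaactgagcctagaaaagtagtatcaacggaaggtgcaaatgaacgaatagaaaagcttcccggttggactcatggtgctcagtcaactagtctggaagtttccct

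The first stretch is the whole distance of 126 bases between the COL4A1 and COL4A2 starts. It holds 1 GC box and 1 CCAAT. The second is the 82 shared bases of the 418 between COL4A4 and COL4A3 and holds 0 of either motif, and the third is the 121 shared bases of the 379 between COL4A6 and COL4A5 and holds 2 CCAAT motifs in opposite directions. Over all 35114 RefSeq windows, 45% held a GC box and 34.6% a CCAAT. A window was listed for 39 of the 53 members, and of the 19 tested members among them 15 held a GC box and 5 a CCAAT. A member was counted if any of its windows held the motif, whereas the percentages are of single windows. The counts and the percentages are therefore not comparable. A match of letters is a description only.

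The members were compared with vehicle at each time to ask which collagen and laminin transcripts differed after exposure. At 24 h, 2 members rose and 9 fell of the 27 tested (limma, adjusted p under 0.05), where 26.3% of all genes tested rose and 22.8% fell. At 48 h, 8 rose and 13 fell, where 30.6% of all genes rose and 33.9% fell. The share of members that rose at 48 h, 29.6%, was thus near that of all genes. The share that fell was 33.3% of members at 24 h and 48.1% at 48 h. COL4A5 among the falls at 24 h, COL4A3, COL4A4 and COL4A5 among those at 48 h, and COL9A3 among the rises at 48 h passed the filter through 1 side of the comparison only, so the shares are no support. Among collagens 2 rose and 8 fell of 19 at 24 h, and 5 rose and 10 fell at 48 h. Of 8 laminins 1 fell at 24 h, and 3 rose and 3 fell at 48 h. At 24 h, 4 members had every Aa array above every control array and 13 had every Aa array below, which held for 30.8% and 29% of all genes. At 48 h these counts were 8 and 13, and 33% and 36.1% of all genes. The median change of the tested members was -0.23 at 24 h and -0.35 at 48 h, against 0.02 and -0.03 over all genes. The median size of a change, taken without sign, was 0.43 for members and 0.43 for all genes at 24 h, and 0.89 and 0.61 at 48 h.

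These counts depend on how the arrays are put on a common scale. Scaling to the 18 hybridisation-control probe sets, which are spiked into every sample, moved the median of all genes to -0.27 at 24 h and -0.47 at 48 h. On that scale 0 members rose and 14 fell at 24 h (limma, 0 higher at an unadjusted p under 0.05), and 3 rose and 15 fell at 48 h. The 3 that rose were COL7A1, LAMB2 and LAMB3. With the replicate number as a block, 5 members rose and 10 fell at 24 h, and 8 rose and 14 fell at 48 h. The median change of the members was -0.53 at 24 h and -0.75 at 48 h with hybridisation-control scaling, and -0.043 and 0.0024 with no filter. At 24 h it was -0.14 without Aa 24 h replicate 2. The median at 48 h was -0.047 with the mean over all probe sets of a gene, and -0.0042 when genes were instead kept by a mean over log2 4, a choice made after seeing the data. It was 0.039 without control 48 h replicate 1 and -0.030 without control 48 h replicate 3.

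**Figure D1:**
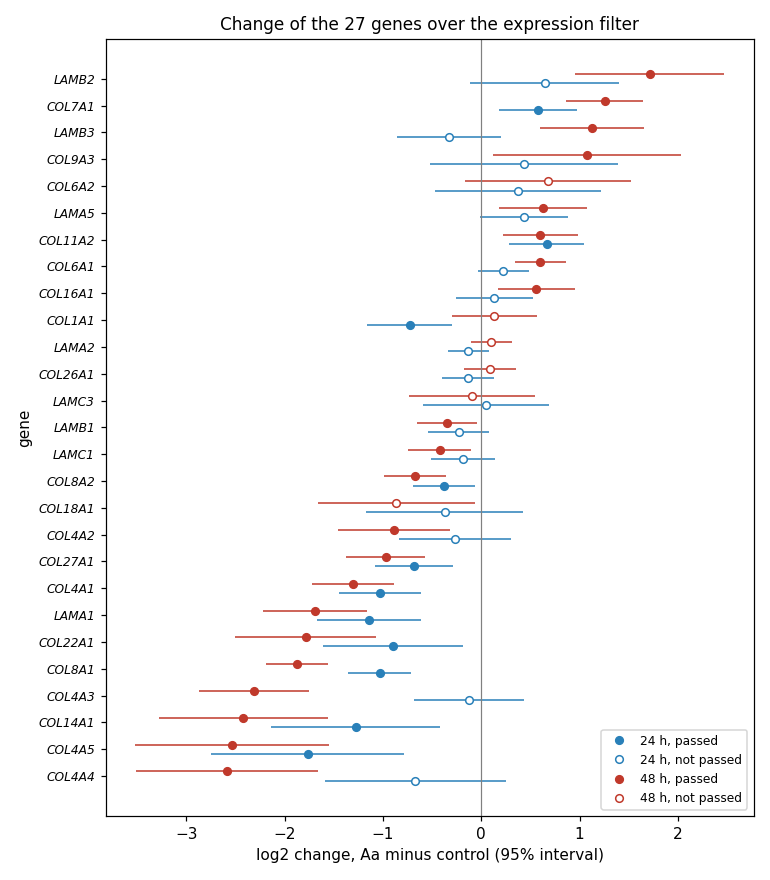
Log2 change (x axis, Aa minus control) of the 27 tested members (y axis, ordered by the 48 h change) at 24 h in blue and 48 h in red. Points are limma estimates, bars are 95% intervals, and filled points had an adjusted p under 0.05; at 48 h the type IV genes COL4A3, COL4A4 and COL4A5 and the fibril-associated COL14A1 lie furthest left, and LAMB2, COL7A1 and LAMB3 furthest right.

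Of the type IV collagens, COL4A1 fell at both times and COL4A2 at 48 h. COL4A3, COL4A4 and COL4A5 passed the filter through control arrays alone, so that their lower levels with Aa were fixed by it, and they are a description here although they are among the falls counted above. COL4A1, which encodes the alpha1 chain found in nearly all basement membranes, read 12.88, 12.46 and 12.46 on the control arrays at 24 h, in the order of replicates 1 to 3, and 11.84, 11.34 and 11.54 on the Aa arrays. The 48 h arrays read 12.75, 12.43 and 12.61 in controls and 11.65, 11.17 and 11.06 with Aa. The groups did not overlap at either time. Its level fell by 1.03 on the log2 scale at 24 h (SE 0.189, adjusted p = 0.000992, 2.04-fold lower) and by 1.30 at 48 h (adjusted p = 0.000118, 2.46-fold lower). Both COL4A1 probe sets fell by a like amount.

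COL4A2, the partner chain alpha2, shares the stretch printed above with COL4A1 but changed less at 24 h. Its control arrays at 24 h read 12.99, 12.34 and 12.52 and the Aa arrays 12.72, 11.84 and 12.50, so the groups overlapped. The 24 h change was -0.27 (95% interval -0.84 to 0.31, adjusted p = 0.426). Within replicate numbers Aa was lower in all 3 pairs, and with the replicate block the adjusted p was 0.0417. At 48 h the arrays read 13.00, 12.36 and 12.64 in controls and 12.02, 11.49 and 11.83 with Aa, with every Aa array below every control array. The level was 1.85-fold lower (log2 change -0.89, SE 0.259, adjusted p = 0.0111). The 48 h change exceeded the 24 h change with the replicate block (adjusted p = 0.0088) and missed the threshold without it (adjusted p = 0.251).

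The alpha3, alpha4 and alpha5 chains were near background in these cells except in controls. COL4A3 read 4.36, 5.59 and 4.50 in the 48 h controls and between 2.48 and 2.80 on the other 9 arrays. COL4A4 read 4.66, 6.08 and 4.04 in the 48 h controls, 2.50, 2.98 and 3.53 in the 24 h controls and 2.26 to 2.43 with Aa. In both genes the 48 h controls were the only arrays over log2 4. COL4A3 was at least 1.76-fold lower with Aa at 48 h (limma adjusted p = 1.53e-05) and COL4A4 at least 1.9-fold lower (adjusted p = 0.000262), with Aa arrays entered at log2 4. At 24 h every array of both genes was under log2 4, which leaves no fold. The other 6 COL4A3 probe sets were under the filter.

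COL4A5 read 3.79, 5.14 and 4.37 in controls and 2.63, 2.60 and 2.77 with Aa at 24 h. At 48 h the values were 5.61, 6.41 and 4.45 in controls and 3.15, 3.16 and 2.54 with Aa. All 6 Aa arrays were under log2 4, and 5 of the 6 control arrays, through which it passed the filter, were over it. The gene was at least 1.35-fold lower at 24 h (adjusted p = 0.00691) and at least 2.81-fold lower at 48 h (adjusted p = 0.000468). With all values under log2 4 set to log2 4, the 24 h change was -0.50 (adjusted p = 0.334); over all 21 alternatives in which it was tested the adjusted p at 24 h ran from 0.00149 to 0.334. COL4A6, which encodes the alpha6 chain, was under the filter on all 12 arrays.

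**Figure D2:**
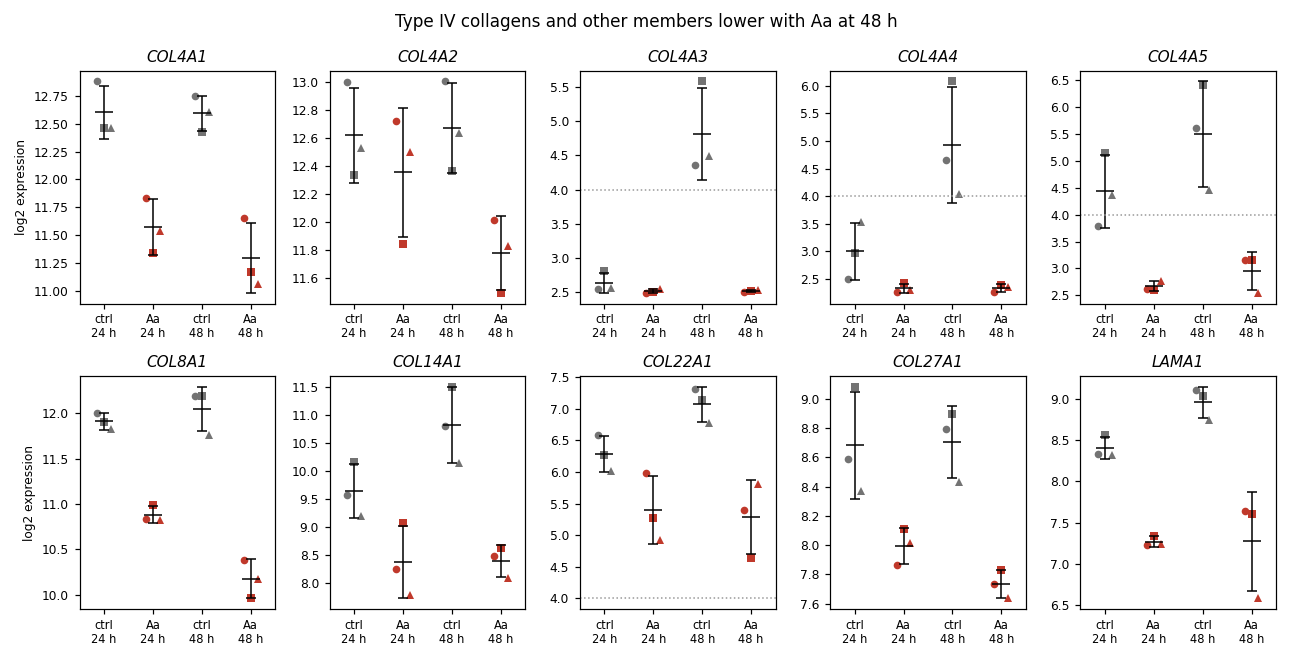
Log2 level (y axis) in the 4 groups (x axis) for 10 members that were lower with Aa at 48 h: the 5 tested type IV genes, COL8A1, COL14A1, COL22A1, COL27A1 and LAMA1. Each point is 1 array (circle, square and triangle for replicates 1, 2 and 3; grey control, red Aa), short lines are the mean with SD of 3 arrays and the dotted line is log2 4; COL4A3, COL4A4 and COL4A5 rise over log2 4 only in controls, while the 48 h Aa arrays of COL8A1, at 9.96 to 10.39, lie below its 48 h control arrays, at 11.76 to 12.19.

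The short-chain collagens of type VIII, which form open networks beneath some cell layers, also fell at both times. COL8A1 read 12.01, 11.90 and 11.82 in controls and 10.83, 10.99 and 10.82 with Aa at 24 h. After 48 h its values were 12.19, 12.19 and 11.76 in controls and 10.39, 9.96 and 10.18 with Aa. The gap between groups was wider than the spread within any of them. COL8A1 was 2.04-fold lower at 24 h (log2 change -1.03, SE 0.144, adjusted p = 0.000159) and 3.67-fold lower at 48 h (log2 change -1.88, adjusted p = 1.18e-06). Both its probe sets over the filter fell.

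COL8A2, the second type VIII chain, moved less on its brighter probe set, which is described first. It read 5.97, 5.68 and 6.00 in controls and 5.58, 5.34 and 5.61 with Aa at 24 h, and 5.93, 6.09 and 6.26 against 5.62, 5.43 and 5.22 at 48 h. Groups did not overlap at either time. The 24 h change of -0.37 passed narrowly (SE 0.143, adjusted p = 0.0492) and was called in 12 of 23 alternatives, with adjusted p from 0.000134 to 0.159. It was lost without Aa 24 h replicate 1 (0.0718), 2 (0.159) or 3 (0.059), without Aa 48 h replicate 2 (0.0627), without control 24 h replicate 1 (0.136) or 3 (0.145), and without control 48 h replicate 2 (0.0629). At 48 h COL8A2 was 1.59-fold lower (adjusted p = 0.00172), a call kept in all 23 alternatives.

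Of the fibril-associated and related collagens, COL14A1 and COL22A1 fell at both times. COL14A1, whose protein coats collagen fibrils, read 9.57, 10.15 and 9.20 in controls and 8.25, 9.06 and 7.78 with Aa at 24 h. At 48 h the control arrays read 10.79, 11.51 and 10.15 and the Aa arrays 8.47, 8.62 and 8.08. The groups were apart at both times, and replicate 2 was the highest array of each group. COL14A1 was 2.42-fold lower at 24 h (log2 change -1.28, SE 0.39, adjusted p = 0.0186) and 5.36-fold lower at 48 h (log2 change -2.42, adjusted p = 0.00025). All 4 of its probe sets fell. The 24 h call was lost without Aa 24 h replicate 1 (adjusted p = 0.054) or 3 (0.0751) and without control 24 h replicate 2 (0.0754), within a range of 8.75e-05 to 0.0754 over its alternatives.

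COL22A1, a chain of tissue junctions, read 6.59, 6.26 and 6.02 in controls and 5.98, 5.28 and 4.93 with Aa at 24 h. At the later time the controls read 7.31, 7.14 and 6.77 and the Aa arrays 5.41, 4.65 and 5.81. Again every Aa array lay below every control array of its time. Its level was 1.86-fold lower at 24 h (log2 change -0.90, SE 0.322, adjusted p = 0.0385) and 3.45-fold lower at 48 h (log2 change -1.79, adjusted p = 0.000559). Leaving out Aa 24 h replicate 2 (0.0963) or 3 (0.14) or control 24 h replicate 1 (0.126) or 2 (0.0773) ended the 24 h call, and the adjusted p ran from 0.0123 to 0.14 over its 23 alternatives.

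COL16A1, which also associates with fibrils, rose at 48 h only. Its 48 h arrays read 7.06, 7.38 and 7.20 in controls and 7.59, 7.70 and 8.03 with Aa, without overlap. The level was 1.47-fold higher (log2 change 0.56, SE 0.178, adjusted p = 0.0169). The call was lost without Aa 48 h replicate 3 (0.0707) or control 48 h replicate 1 (0.0611) and with hybridisation-control scaling (0.12, adjusted p = 0.626, the highest of its 23 alternatives). At 24 h it read 7.65, 7.40 and 6.98 in controls and 7.42, 7.63 and 7.37 with Aa, with a change of 0.13 (adjusted p = 0.566) that turned to -0.15 with hybridisation-control scaling and to -0.048 without control 24 h replicate 3. The difference between the times was not called (adjusted p = 0.251).

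COL9A3, a cartilage chain, was over log2 4 on 2 Aa arrays at each time and on no control array, which is how it passed the filter. It read 4.30, 3.73 and 4.52 with Aa at 24 h and 4.60, 6.03 and 3.77 with Aa at 48 h, and 3.73 to 3.76 on the 6 control arrays. The 48 h rise, at least 1.74-fold, had an adjusted p of 0.0486 and was kept in 4 of 22 alternatives. Without Aa 48 h replicate 2, the highest array, the change was 0.46 (adjusted p = 0.147). Leaving out any other array except Aa 48 h replicate 3 also ended the call, with adjusted p values of 0.0503 to 0.0947, and over all 22 alternatives they ran from 0.00322 to 0.158. The replicate block gave 0.0599. COL26A1 lay between 5.73 and 6.19 on all 12 arrays and had a 24 h change of -0.13 (adjusted p = 0.386) and a 48 h change of 0.09 (adjusted p = 0.54), which turned to -0.35 with hybridisation-control scaling and to -0.0023 without control 48 h replicate 3.

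The fibrillar collagens were mostly under the filter: 3 of 11 were tested, COL1A1, COL11A2 and COL27A1. COL27A1, a fibrillar chain of cartilage and other tissues, read 8.59, 9.08 and 8.37 in controls and 7.86, 8.11 and 8.02 with Aa at 24 h. Controls at 48 h read 8.79, 8.89 and 8.43 and Aa arrays 7.73, 7.83 and 7.64. It was lower on every Aa array. The change was -0.69 at 24 h (SE 0.179, adjusted p = 0.00834) and -0.97 at 48 h (adjusted p = 0.000652, 1.96-fold lower), and both calls held in all 23 alternatives.

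COL1A1, the main chain of type I collagen, read 8.56, 8.43 and 8.06 in controls and 7.85, 7.75 and 7.27 with Aa at 24 h. The 48 h arrays read 8.01, 8.05 and 7.53 in controls and 8.16, 7.96 and 7.88 with Aa. The groups were apart at 24 h and overlapped at 48 h. COL1A1 was 1.65-fold lower at 24 h (log2 change -0.73, SE 0.195, adjusted p = 0.00947). Its probe sets differed in size: the mean over all 5 gave -0.20 (adjusted p = 0.126), the highest of its alternatives, and 2 of the 5 were under the filter. The 48 h change was 0.13 (95% interval -0.29 to 0.56, adjusted p = 0.566) and turned to -0.31 with hybridisation-control scaling and to -0.030 without control 48 h replicate 3. Its other probe sets over the filter differed in sign at 48 h, with changes of -0.50 and 0.35. The partner chain COL1A2 was under the filter, at 2.83 to 3.08 on the 12 arrays.

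COL11A2, a minor fibrillar chain, was the other fibrillar member and rose. It read 4.10, 3.92 and 3.53 in controls and 4.90, 4.31 and 4.36 with Aa at 24 h, and 4.33, 4.32 and 4.30 against 5.01, 4.94 and 4.81 at 48 h. Aa arrays lay above control arrays at both times, close to background. COL11A2 was at least 1.4-fold higher at 24 h (adjusted p = 0.00811) and 1.52-fold higher at 48 h (log2 change 0.60, SE 0.174, adjusted p = 0.0105). These sizes are of the probe set with the highest mean level. A second COL11A2 probe set, over log2 4 on 6 arrays, had larger changes of 1.79 at 24 h and 3.18 at 48 h. On the hybridisation-control scale the changes of the first probe set were 0.39 (adjusted p = 0.13) and 0.16 (adjusted p = 0.491). Each was the only 1 of 22 alternatives that ended the call.

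COL7A1, the collagen of the anchoring fibrils that tie epithelia to the tissue beneath, rose at both times. It read 7.77, 7.85 and 7.36 in controls and 8.46, 8.09 and 8.17 with Aa at 24 h. After 48 h its values were 7.00, 6.99 and 6.61 in controls and 8.21, 8.33 and 7.85 with Aa. The Aa arrays were at like levels at the 2 times, and the controls were lower at 48 h than at 24 h. COL7A1 was 1.49-fold higher at 24 h (log2 change 0.58, SE 0.179, adjusted p = 0.0196) and 2.39-fold higher at 48 h (log2 change 1.26, adjusted p = 0.000102). The 48 h call held in all 23 alternatives. At 24 h it was lost without Aa 24 h replicate 1 (0.079) or control 24 h replicate 3 (0.0811) and with hybridisation-control scaling (0.30, adjusted p = 0.239, the highest of its alternatives). The control change from 24 h to 48 h was -0.79 (adjusted p = 0.0695).

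Type VI collagen forms beaded filaments around cells from alpha1, alpha2 and the third of its chains. COL6A1 read 10.05, 10.09 and 10.07 in controls and 10.30, 10.11 and 10.47 with Aa at 24 h. At the later time the controls read 9.51, 9.57 and 9.63 and the Aa arrays 10.28, 9.97 and 10.27. The groups did not overlap, though by little at 24 h. COL6A1 was 1.52-fold higher at 48 h (log2 change 0.60, SE 0.117, adjusted p = 0.000965). Its 5 probe sets over the filter had 48 h changes of 0.60, 0.66, 0.05, 0.15 and -0.09. The mean over all its probe sets gave 0.18 (adjusted p = 0.302). Hybridisation-control scaling gave 0.16 (adjusted p = 0.423, the highest of its 23 alternatives). Its 24 h change was 0.23 (adjusted p = 0.134), and -0.056 with hybridisation-control scaling.

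COL6A2 read 8.50, 7.70 and 8.39 in controls and 8.98, 7.90 and 8.85 with Aa at 24 h, and 8.26, 7.39 and 8.14 against 8.98, 7.90 and 8.96 at 48 h. Replicate 2 was the lowest array of every group, so the groups overlapped although Aa was higher within each replicate number. The changes were 0.38 (adjusted p = 0.444) and 0.68 (SE 0.382, adjusted p = 0.139). With the replicate block the adjusted p was 0.00446 at 24 h and 8.44e-05 at 48 h. Without Aa 48 h replicate 2 the 48 h adjusted p was 0.0333. The second COL6A2 probe set had changes of -0.11 and -0.13, opposite to the first. COL6A3, COL6A5 and COL6A6, which encode alternatives for the last of these, were under the filter.

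COL18A1, a basement membrane collagen of the multiplexin class, read 9.96, 9.46 and 9.72 in controls and 9.88, 8.71 and 9.44 with Aa at 24 h. Controls at 48 h read 10.13, 9.25 and 9.48 and Aa arrays 9.24, 8.04 and 9.00. Replicate 2 was again the lowest of each group. The 48 h change of -0.87 (SE 0.362, adjusted p = 0.0553) just missed the threshold, and with the replicate block the adjusted p was 0.00086. It passed without Aa 24 h replicate 1 (0.0464) or 2 (0.0374), Aa 48 h replicate 1 (0.0311) or control 48 h replicate 2 (0.0461). A second COL18A1 probe set had a 48 h change of -0.073, and the 24 h change of the first was -0.37 (adjusted p = 0.424).

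**Figure D3:**
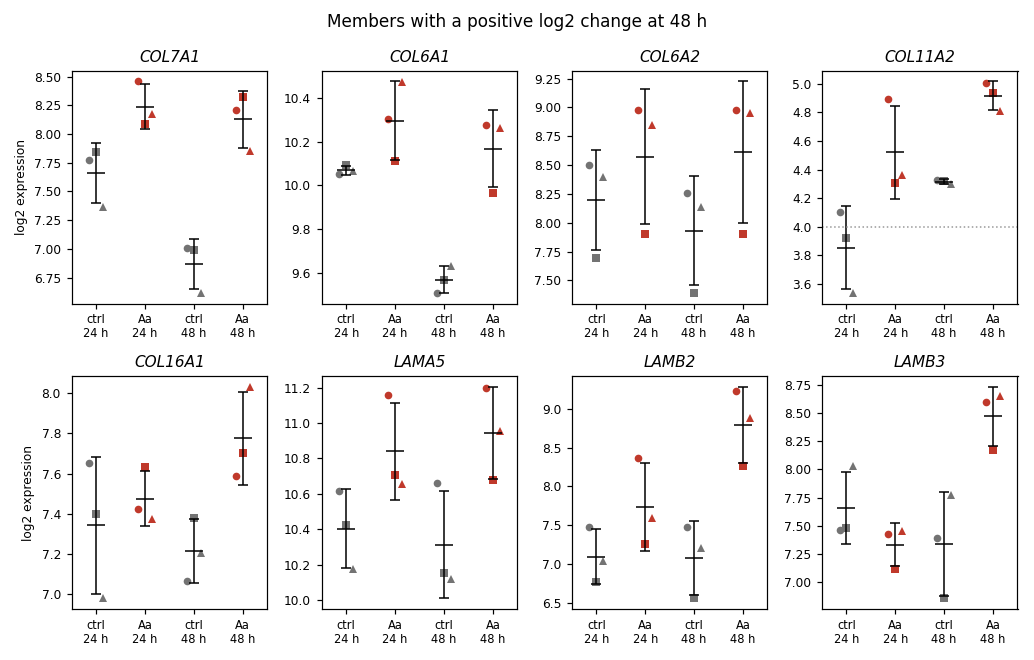
Log2 level (y axis) in the 4 groups (x axis) for 8 members with a positive log2 change at 48 h: COL7A1, COL6A1, COL6A2, COL11A2, COL16A1, LAMA5, LAMB2 and LAMB3. Each point is 1 array (circle, square and triangle for replicates 1, 2 and 3; grey control, red Aa), short lines are the mean with SD of 3 arrays and the dotted line is log2 4; LAMB3 with Aa was 7.11 to 7.45 at 24 h and 8.17 to 8.65 at 48 h, while its 48 h controls were 6.86 to 7.78, and of these genes COL7A1, LAMB2 and LAMB3 passed at 48 h with hybridisation-control scaling.

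Among the laminin alpha chains, which carry the domains that cell receptors bind, LAMA1 fell, LAMA5 rose at 48 h and LAMA2 did not pass at either time. LAMA1, the alpha chain of laminin-111, read 8.33, 8.56 and 8.33 in controls and 7.23, 7.34 and 7.23 with Aa at 24 h. The 48 h arrays read 9.11, 9.03 and 8.75 in controls and 7.64, 7.61 and 6.58 with Aa. The groups were far apart, with 1 Aa array at 48 h, replicate 3, below the rest. LAMA1 was 2.2-fold lower at 24 h (log2 change -1.14, SE 0.24, adjusted p = 0.00239) and 3.23-fold lower at 48 h (log2 change -1.69, adjusted p = 1e-04), and both calls held in all 23 alternatives.

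LAMA5, the alpha chain of laminin-511 and laminin-521 in mature kidney basement membranes, read 10.62, 10.43 and 10.17 in controls and 11.16, 10.71 and 10.65 with Aa at 24 h. After 48 h its values were 10.66, 10.16 and 10.12 in controls and 11.20, 10.68 and 10.96 with Aa. Aa arrays were above control arrays at both times with a gap smaller than the range within a group. It was 1.55-fold higher at 48 h (log2 change 0.63, SE 0.202, adjusted p = 0.0176). This call was lost without Aa 48 h replicate 1 (0.0694) or control 48 h replicate 2 (0.062) or 3 (0.063), and with hybridisation-control scaling (0.19, adjusted p = 0.515, the highest of its 23 alternatives). The 24 h change of 0.44 had an adjusted p of 0.0973, and 0.00503 with the replicate block. LAMA2, the alpha chain of muscle and nerve, stayed between 4.21 and 4.65 on all arrays, with a 24 h change of -0.13 (adjusted p = 0.277) and a 48 h change of 0.10 (adjusted p = 0.356), which turned to -0.34 (adjusted p = 0.0265) with hybridisation-control scaling.

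The beta chains moved in opposite directions. LAMB2, the beta chain of laminin-521, read 7.48, 6.78 and 7.04 in controls and 8.36, 7.26 and 7.60 with Aa at 24 h. At the later time the controls read 7.48, 6.56 and 7.20 and the Aa arrays 9.23, 8.27 and 8.89. The groups overlapped at 24 h and were separate at 48 h, and in each group replicate 1 was the highest and replicate 2 the lowest array. LAMB2 was 3.28-fold higher at 48 h (log2 change 1.71, SE 0.342, adjusted p = 0.00112), a call kept in all 23 alternatives. Its 24 h change was 0.64 (adjusted p = 0.144), and with the replicate block the adjusted p was 0.000877.

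LAMB3, a beta chain found in the adhesion sites of epithelia, behaved differently at the 2 times. It read 7.46, 7.48 and 8.03 in controls and 7.43, 7.11 and 7.45 with Aa at 24 h, and 7.39, 6.86 and 7.78 against 8.60, 8.17 and 8.65 at 48 h. With Aa it lay just under the controls at 24 h and above all of them at 48 h. The 24 h change was -0.33 (95% interval -0.85 to 0.20, adjusted p = 0.287). At 48 h LAMB3 was 2.19-fold higher (log2 change 1.13, SE 0.239, adjusted p = 0.00165), again in all 23 alternatives.

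LAMB1, the beta chain of laminin-111 and laminin-511, read 12.53, 12.20 and 12.38 in controls and 12.26, 12.15 and 12.01 with Aa at 24 h, and 12.95, 12.87 and 12.59 against 12.67, 12.34 and 12.35 at 48 h. The groups overlapped at both times. The 48 h change of -0.35 (SE 0.139, 1.27-fold lower) had an adjusted p of 0.0458 and was kept in 13 of 23 alternatives, with adjusted p from 0.00211 to 0.148. It was lost without Aa 24 h replicate 1 (0.0525) or 2 (0.057), Aa 48 h replicate 2 (0.133) or 3 (0.131), control 24 h replicate 3 (0.0591), or control 48 h replicate 1 (0.148) or 2 (0.116). At 24 h the change was -0.23 (adjusted p = 0.196).

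Of the gamma chains, LAMC1 is part of most laminins. It read 11.23, 11.25 and 11.07 in controls and 11.05, 11.11 and 10.84 with Aa at 24 h, and 11.61, 11.65 and 11.25 against 11.21, 11.21 and 10.82 at 48 h. The 48 h groups were separate by a narrow gap, and replicate 3 was the lowest array of each group. LAMC1 was 1.34-fold lower at 48 h (log2 change -0.42, SE 0.146, adjusted p = 0.025) and had a 24 h change of -0.19 (adjusted p = 0.319). The 48 h call was lost without Aa 48 h replicate 3 (0.102) or control 48 h replicate 1 (0.0805) or 2 (0.0886), within a range of 0.000606 to 0.102. LAMC3 lay between 7.37 and 8.29 on all arrays, and its changes of 0.05 (adjusted p = 0.897) and -0.10 (adjusted p = 0.788) took either sign when single arrays were left out, from -0.15 to 0.33 at 24 h and from -0.31 to 0.10 at 48 h, and the 24 h change was -0.23 with hybridisation-control scaling.

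By chain, then, LAMA1, LAMB1 and LAMC1, the chains of laminin-111, were lower on the 48 h Aa arrays. LAMA5 and LAMB2, which with LAMC1 make laminin-521, were higher. LAMC1 is part of both trimers, and the trimers themselves were not measured. LAMA1 and LAMB2 were called in all 23 alternatives at 48 h, LAMA5 in 19, LAMC1 in 18 and LAMB1 in 13. LAMB3 rose. With hybridisation-control scaling LAMA5 no longer passed, and LAMB2 and LAMB3 did.

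The 26 members under the filter were COL1A2, COL2A1, COL3A1, COL4A6, COL5A1, COL5A2, COL5A3, COL6A3, COL6A5, COL6A6, COL9A1, COL9A2, COL10A1, COL11A1, COL12A1, COL13A1, COL15A1, COL19A1, COL20A1, COL21A1, COL23A1, COL24A1, COL25A1, COL28A1, LAMA4 and LAMB4. They include COL3A1, the second main fibrillar collagen of connective tissue, and all 3 transmembrane collagens on the array. COL11A1 and COL12A1 lay just outside, over log2 4 on 2 control arrays at 24 h. COL11A1 read 5.06, 3.52 and 4.19 on those control arrays and COL12A1 4.94, 3.68 and 5.77, and both were under log2 4 on the other 9 arrays. Just inside were COL4A3 and COL4A4, over it on 3 arrays, COL9A3 on 4 and COL4A5 on 5. Kept by a mean over log2 4 instead, 24 members were tested, of which 2 rose and 8 fell at 24 h (26.2% and 22.8% of all genes) and 8 rose and 10 fell at 48 h (30.4% and 33.9%).

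Whether the response of a member changed with time was tested as the 48 h change minus the 24 h change. It was larger at 48 h for 1 member, LAMB3 (difference 1.46, adjusted p = 0.0156), where 6.8% of all genes passed in that direction. It was smaller, that is a deeper fall, for 3 members, COL8A1 (-0.85, adjusted p = 0.018), COL4A3 (-2.18, adjusted p = 0.00395) and COL4A4 (-1.91, adjusted p = 0.0452), where 12.7% of all genes passed. LAMB3 was called in all 22 alternatives. COL8A1 was called in 21 of 22; the mean over its probe sets gave -0.42 (adjusted p = 0.0752). The COL4A3 and COL4A4 differences rest on the 48 h controls, since all arrays of both genes were under log2 4 at 24 h. With values under log2 4 set to log2 4 they were -0.81 (adjusted p = 0.118, range over alternatives 0.00154 to 0.118) and -0.93 (adjusted p = 0.234, range 0.0275 to 0.234). Without any 1 of the 3 control arrays at 48 h both genes left the test, and the COL4A4 call was lost without any 1 of 8 other arrays (adjusted p from 0.0697 to 0.0952).

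The replicate block raised these counts to 4 larger and 5 smaller. Added were COL1A1 (0.86, adjusted p = 0.00176), COL7A1 (0.68, adjusted p = 0.0114) and LAMB2 (1.07, adjusted p = 0.00148) among the larger, and COL14A1 (-1.15, adjusted p = 0.00363) and COL4A2 (-0.62, adjusted p = 0.0088) among the smaller. COL1A1 without the block had an adjusted p of 0.0501, and it passed without Aa 24 h replicate 1 (0.0481) or control 24 h replicate 3 (0.0448).

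Control arrays themselves differed between the times for some members, which enters every difference between times. By limma 1 member passed between controls, where 0.635% of all genes passed. It was COL4A3 (at least 1.76-fold higher at 48 h, adjusted p = 0.00813), which the filter kept only because its 48 h controls were high, so this is a description. The control groups did not overlap for 10 members, where this held for 22.6% of all genes. COL4A3 left the test without control 48 h replicate 1, 2 or 3. With the replicate block 9 members passed, adding COL1A1, COL6A1, COL7A1 and COL11A2, which were lower in 48 h controls except for the last, and COL4A4, COL14A1, LAMB1 and LAMC1, which were higher. For COL7A1 and COL6A1, whose Aa arrays were at like levels at both times, the larger 48 h difference came with lower 48 h controls.

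Members differ in what their rule did not use, the genomic span of the gene. Spans came from RefSeq (GRCh38.p14) and ran from 11.94 kb for LAMB2 and 17.53 kb for COL1A1 to 633.4 kb for LAMA2. Across the 27 tested members, Spearman's rho between span and change was -0.606 at 24 h and -0.751 at 48 h, against -0.247 and -0.366 over 11176 genes. These are descriptions over genes measured on the same 12 arrays, which are not independent. Split at 100 kb, a limit chosen after the values were seen, 14 members with a longer span had 0 rises and 7 falls at 24 h and 0 rises and 11 falls at 48 h. Among all 1962 genes of that span 9.99% rose and 52.5% fell at 24 h, and 7.65% and 71.2% at 48 h. The 13 shorter members had 2 rises and 2 falls at 24 h and 8 rises and 2 falls at 48 h. Of all 9214 shorter genes 29.8% rose and 16.5% fell at 24 h, and 35.5% and 25.9% at 48 h. Both rho and these counts include genes that passed the filter through one side only. COL4A3, COL4A4 and COL4A5, of the longer span, passed through control arrays alone, and COL9A3, of the shorter span, through Aa arrays alone. The direction of their calls was fixed by the filter, so the span values are no support.

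The longer members had median changes of -0.68 and -1.49 at the 2 times, beside -0.55 and -1.02 for all genes of that span. The shorter members had 0.23 and 0.60, beside 0.10 and 0.09. Long members not called at either time were LAMA2, COL26A1 (196.6 kb) and COL18A1 (108.6 kb). LAMA2 was close to background, at 4.21 to 4.65 on all arrays. A second LAMA2 probe set, with a mean of 4.20, had changes of -0.46 at 24 h and -0.0071 at 48 h. COL26A1 lay between 5.73 and 6.19, and its second probe set was at background, with a mean of 2.10. COL8A2 (29.98 kb) and LAMB1 (79.36 kb) were short and lower at 48 h. The type VIII pair COL8A1 (160.6 kb) and COL8A2 differed in span, and both fell. The part of span in these changes was not tested.

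**Figure D4:**
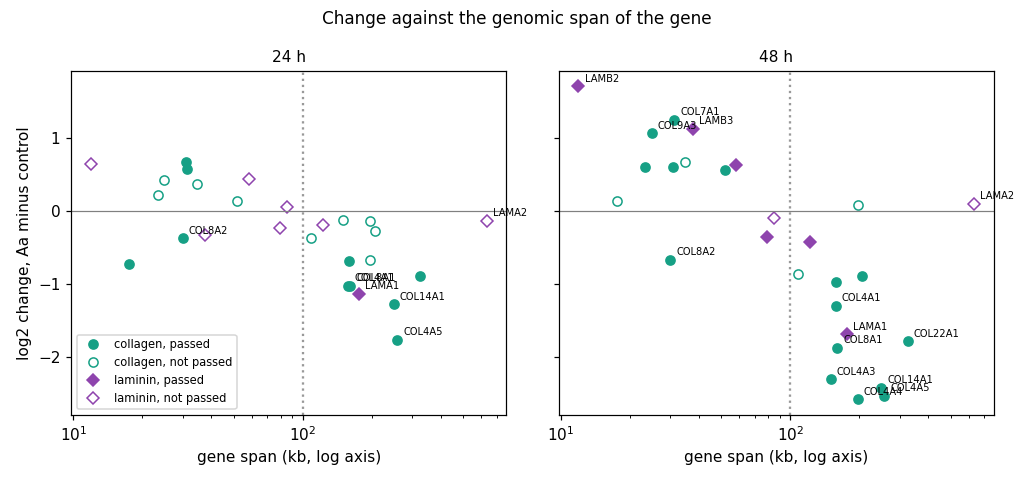
Log2 change (y axis, Aa minus control) of the 27 tested members against the genomic span of the gene (x axis, kb, log scale) at 24 h (left) and 48 h (right). Circles are collagens, diamonds laminins, filled symbols had an adjusted p under 0.05, and the dotted line marks 100 kb. At 48 h all 8 members that rose lie left of the line and 11 of the 13 that fell lie right of it. These include COL4A3, COL4A4 and COL4A5, which passed the filter through control arrays alone, and COL9A3, which passed through Aa arrays alone.

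The genes that act on these chains were counted from lists of known function, to be read beside the 26.3% of all genes that rose and 22.8% that fell at 24 h and the 30.6% and 33.9% at 48 h. On the hybridisation-control scale falls in these 4 lists numbered 7, 6, 8 and 3 at 24 h and 13, 6, 9 and 4 at 48 h, in the order given below, and each list had at most 1 rise at 24 h and at most 2 at 48 h. Of 20 tested genes for collagen modification, folding and secretion, 2 rose and 6 fell at 24 h and 4 rose and 8 fell at 48 h, with medians of -0.12 and -0.18. With the replicate block 5 rose and 9 fell at 24 h. SERPINH1, the collagen chaperone HSP47, read 11.77, 11.53 and 11.67 in 24 h controls and 11.37, 10.87 and 11.28 with Aa, and 11.86, 11.36 and 11.76 against 11.12, 10.68 and 10.86 at 48 h. It was lower on every Aa array, with changes of -0.48 (adjusted p = 0.04) and -0.78 (adjusted p = 0.00245). P3H2, which hydroxylates proline in basement membrane collagens, fell by 1.80 and 1.44 on the log2 scale (adjusted p = 0.000236 and 0.000679). SEC24D, a subunit of the coat of the vesicles that carry procollagen, fell by 0.79 and 1.82 (adjusted p = 0.0142 and 4.01e-05).

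Of 11 tested genes for procollagen cleavage and cross-linking, 1 rose and 4 fell at 24 h and 5 rose and 5 fell at 48 h (medians -0.32 and -0.04, the second 0.04 with quantile normalisation). ADAMTS3, which removes the amino-terminal end of procollagen, read 10.93, 10.61 and 10.32 in 24 h controls and 7.78, 7.91 and 7.43 with Aa. It fell by 2.91 at 24 h and 2.85 at 48 h (adjusted p = 2.6e-06 and 1.62e-06). LOX, the enzyme that starts cross-links, fell by 1.31 and 2.01 (adjusted p = 0.0192 and 0.00111). TLL2, a protease of the procollagen C-proteinase family, was at least 3.47-fold higher at 24 h (adjusted p = 2.22e-05) and at least 1.03-fold higher at 48 h (adjusted p = 0.0152). With the replicate block 2 genes of the list rose at 24 h.

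Of 12 other basement membrane proteins tested, 1 rose and 6 fell at 24 h and 1 rose and 8 fell at 48 h, with medians of -0.88 and -1.45. NID1, nidogen-1, which links laminin to type IV collagen, read 10.20, 9.72 and 9.69 in 24 h controls and 9.05, 8.58 and 8.37 with Aa. At 48 h it read 10.30, 10.01 and 9.92 against 8.79, 7.90 and 7.99. Its Aa arrays were the lowest at each time, with changes of -1.20 (adjusted p = 0.00251) and -1.85 (adjusted p = 8.25e-05). FRAS1, a basement membrane protein of developing epithelia, was 7.57-fold lower at 24 h (adjusted p = 0.00281) and at least 47.6-fold lower at 48 h (adjusted p = 1.63e-05). These folds are of group means. The FRAS1 arrays at 48 h read 11.06, 10.90 and 9.93 in controls and, widely spread, 6.67, 3.60 and 4.49 with Aa. Of the 6 FRAS1 probe sets 1 was over the filter, and all 6 fell. Its partner FREM2 was at least 1.55-fold and at least 4.66-fold lower (adjusted p = 0.00217 and 1.49e-06), and TINAG, an antigen of the tubular basement membrane, fell by 1.95 and 2.18 (adjusted p = 0.000135 and 3.38e-05).

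Of 8 tested receptors for collagen and laminin, 1 rose and 1 fell at 24 h and 1 rose and 2 fell at 48 h (medians -0.13 and -0.04, the second 0.04 with quantile normalisation). ITGA10, a collagen-binding integrin chain, read 1.71 to 2.70 on the 6 control arrays, which is background, and 6.46, 6.70 and 6.16 with Aa at 24 h and 7.46, 7.48 and 7.69 at 48 h. It was at least 5.43-fold and at least 11.7-fold higher (adjusted p = 6.19e-07 and 7.3e-08). ITGA6, a laminin-binding chain, fell by 1.53 and 1.20 (adjusted p = 2.39e-05 and 7.67e-05). ITGA2 was at least 1.07-fold lower at 48 h (adjusted p = 0.0205). FREM2 and ITGA2 were over log2 4 on control arrays only, and TLL2 and ITGA10 on Aa arrays only, so these genes passed the filter through the side on which they were high and are a description. With the replicate block 2 receptors fell at 24 h and 2 rose at 48 h, and 2 of the other basement membrane proteins rose at 48 h.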

How the data were processed

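Per the submitters' processing notes the authors made the deposited log2 expression values with GCRMA, which corrects probe background, normalises between arrays and summarises probe sets; no version is named there. Array medians were 2.91 to 3.02, so a shift shared by most transcripts would not appear. The platform annotation named 1 gene for 41091 of 54675 probe sets and several for 1801, and 41037 of the former matched RefSeq (GRCh38.p14) by Entrez number. Changes were fitted with limma 3.58.1 in R 4.3.3 (lmFit, eBayes; 4 group means, 12 arrays, 8 residual and 2.79 prior degrees of freedom) and adjusted by Benjamini-Hochberg over 11184 genes. Every adjusted p is from limma. The median SE of a change was 0.161 within a time and 0.227 between times, a precision set by how few arrays there were. Folds written as at least a size had 1 or more arrays of the dimmer group under log2 4, which were counted as log2 4.

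Samples with the same replicate number deviated alike. Deviations from group means correlated at 0.279 to 0.577 for the 18 pairs with the same number in different groups. For the 36 others the correlations were -0.371 to -0.0286. Centring on group means ties both ranges together, so the lower range is no separate sign of pairing. The pairing comes from the numbers in the labels and this check, and the main fit did not use it. Every tested member was named with its values. Of each related list the 2 called genes with the largest change in size at each time were named, and SERPINH1 and NID1 always. The alternatives were a floor at log2 4, no filter, a filter at log2 5 or on the mean (the last chosen after seeing the data), other scalings, the mean of probe sets, other variance models, arrays of 1 time, the replicate block and leaving out each array. The members and lists were chosen with earlier results of these data known. The fit was tested on simulated data with 200 of 11184 genes changed in the 24 h comparison: it recovered 72% at a log2 change of 1 and 95% at 2. The simulated noise was independent, without the replicate pairing. In the data 26.3% of genes rose and 22.8% fell at 24 h, so these rates do not measure recovery here.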

Additional observations from a re-analysis of the deposited data

Results flagged for a closer look

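The change with Aa differed between 24 h and 48 h for 4 members by the limma contrast of the 48 h change minus the 24 h change. The differences were -2.18 for COL4A3 (adjusted p = 0.00395), -1.91 for COL4A4 (adjusted p = 0.0452), -0.85 for COL8A1 (adjusted p = 0.018) and 1.46 for LAMB3 (adjusted p = 0.0156). The first 2 genes were over log2 4 in the 48 h controls alone.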

How the results depend on the processing

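The counts of falls at 24 h and 48 h stayed within 1.5 times of 9 and 13 in 10 of 11 and 11 of 11 alternatives other than leaving out arrays, and the count of rises at 48 h within 1.5 times of 8 in 10 of 11. Rises at 24 h (2) became 1 with a filter at log2 5, 0 with hybridisation-control scaling and 5 with the replicate block. With hybridisation-control scaling falls at 24 h were 14 and rises at 48 h were 3. Larger changes at 48 h (1) became 2 with values floored at log2 4, with the log2 5 filter, with the mean of probe sets, with trend and robust estimation and with the mean filter, 3 with quantile normalisation and 4 with the replicate block. Smaller changes (3) became 1 with the floor, the log2 5 filter, the mean of probe sets and the mean filter, and 5 with the block. Control times (1) became 0 with the floor, the log2 5 filter, the mean of probe sets and the mean filter (limma, 11, 8, 5 and 8 members at an unadjusted p under 0.05), 2 with trend and robust estimation, 6 with hybridisation-control scaling and 9 with the block. Leaving out 1 array gave 1 to 2 rises and 6 to 9 falls at 24 h, 6 to 8 and 9 to 14 at 48 h, 1 to 2 larger and 1 to 3 smaller changes, and 0 to 1 between controls.

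The changes that turned sign with hybridisation-control scaling were COL16A1 (-0.15), COL6A1 (-0.056) and LAMC3 (-0.23) at 24 h, and COL1A1 (-0.31), COL26A1 (-0.35) and LAMA2 (-0.34) at 48 h. The COL11A2 difference between times (-0.07) became 0.12 with the floor, 0.058 with quantile normalisation and 0.66 with the mean of probe sets. Leaving out arrays, turned values ranged from -0.19 to 0.12 for that difference, -0.048 to 0.29 for COL16A1 at 24 h, -0.030 to 0.23 for COL1A1 and -0.0023 to 0.15 for COL26A1 at 48 h, -0.032 to 0.66 for the COL6A2 difference, and -0.15 to 0.33, -0.31 to 0.10 and -0.43 to 0.052 for LAMC3 at 24 h, 48 h and their difference. The causes were not tested. Genes near log2 4, such as COL4A3, COL4A4, COL4A5, COL9A3 and COL11A2, are limited by signal over background.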
